A study of Mus musculus with 17 samples.

Results

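Genes of the p53, Ink4 and cyclin D axis, known as barriers to reprogramming, were followed through fibroblasts, partially reprogrammed cells and pluripotent lines with and without Nanog. The set holds 10 of the 28670 genes in the files, taken by gene name: Trp53, Mdm2, Cdkn1a, Perp, Cdkn1b, Cdkn2a, Cdkn2b, Ccnd1, Ccnd2 and Ccnd3. All 10 passed the filter on low values, set at 1 FPKM or more in 2 or more of the 17 samples. FPKM counts fragments relative to gene length and to a library size, here one scaled by the authors. Comparisons between samples rest on that scaling.

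These genes decide whether a cell leaves G1. Trp53 encodes the transcription factor p53, which switches on Cdkn1a (p21, an inhibitor of cyclin-dependent kinases), the death effector Perp and Mdm2, the ubiquitin ligase that in turn degrades p53. The Cdkn2a-Cdkn2b locus encodes the Ink4 proteins p16Ink4a and p15Ink4b, which block CDK4 and CDK6, and the unrelated p19Arf, which blocks Mdm2. Cdkn1b (p27) restrains cyclin E and cyclin A complexes with CDK2, and cyclins D1, D2 and D3 activate CDK4 and CDK6 to phosphorylate the Rb family. The Ink4 locus is known to become active as fibroblasts are passaged, and loss of p53, p21 or the Ink4 and Arf products is known to raise the yield of reprogramming in mouse fibroblasts.

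The study asked whether cells lacking Nanog can be reprogrammed with the usual retroviral factors (Oct4, Sox2 and Klf4, with c-Myc added or left out). WT mouse embryonic fibroblasts (MEF, passage 2, grown in serum) gave 2 samples, and WT partially reprogrammed cells (piPSC, clone B1, passage 6) gave 2. Nanog -/- embryonic stem cells (ESC, passage 6) gave 2 samples, and Nanog -/- induced pluripotent cells gave 2 from clone G2 and 2 from clone G5 (both passage 6). The piPSC group and each Nanog-null iPSC group is therefore 1 clone. WT iPSC gave 3 samples and WT ESC gave 4, and they are called WT pluripotent cells where both are meant. The Nanog-null fibroblasts behind the clones came from chimeric embryos and were sorted by a constitutive GFP, and the Nanog-null lines were grown on feeder cells in 2i and LIF. Which of the lines received c-Myc is not in the labels.

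Sample codes fall into an AC set of 11 samples and a JI set of 6. All piPSC and Nanog-null samples, WT ESC 1 and 2 and WT iPSC 1 are AC, while both MEF samples, WT ESC 3 and 4 and WT iPSC 2 and 3 are JI. The AC samples are of strain 129/B6 (v6.5) and the JI samples of strain c57/b6, so set and strain cannot be told apart. WT iPSC 1 and the Nanog-null lines were at passage 6, while WT ESC and WT iPSC 2 and 3 were at passage 10 to 15, so between Nanog-null ESC and WT ESC genotype and passage cannot be told apart either. Depth ran from 7.80 to 43.5 M fragments. Nanog was at 45.8 to 49.5 FPKM in Nanog-null ESC and 27.2 to 43.0 in Nanog-null iPSC, against 568 to 762 in the AC samples of WT pluripotent cells. The row covers the whole gene and does not check the deleted stretch. All 10 markers of pluripotent cells, Nanog among them, reached 1 FPKM in every ESC and iPSC sample. In piPSC 6 or 7 did and in MEF none did, where 10 of the 10 were called lower. Against WT lines 9 were called lower in piPSC, 6 in Nanog-null ESC and 7 in Nanog-null iPSC. In piPSC and in Nanog-null ESC 1 was called higher. Among all genes 42.1% were lower in MEF, 35.5% in piPSC, 26.4% in Nanog-null ESC and 28.7% in Nanog-null iPSC. The markers summed to 2604 to 4514 FPKM in Nanog-null samples and 7125 to 7501 in piPSC, against 6578 to 9045 in AC WT pluripotent samples. With 9 of the 10 markers called lower in piPSC, that sum does not describe the list as a whole. The list holds Pou5f1 (Oct4) and Sox2, which are among the retroviral factors, and the part of retroviral message in these sums was not tested. MEF had 514 to 517 FPKM summed over 6 macrophage markers, against 66.5 to 90.7 in the JI samples of WT pluripotent cells, and the part of macrophage RNA in the MEF values was not tested.

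The sequences just before the start sites of the Ink4 genes are shown because Cdkn2a and Cdkn2b lie side by side on chromosome 4 and differ in their levels across these cells. The gene bodies of Cdkn2a (89274473 to 89294619) and Cdkn2b (89306289 to 89311032), both on the minus strand of GRCm38, are 11669 bases from each other. The Cdkn2a row sums 2 messages that start 12427 bases apart, and p16Ink4a and p19Arf cannot be separated in it. The window before the alternative start of Cdkn1a is shown because it holds matches to the p53 half-site. Each window is the 250 bases before a start site, on the gene's strand, from the RefSeq promoter table of GRCm38.p6, which holds 10 windows for 7 of the 10 genes.
Cdkn2a, start of the p16Ink4a message, chr4:89282193-89282442 (minus strand): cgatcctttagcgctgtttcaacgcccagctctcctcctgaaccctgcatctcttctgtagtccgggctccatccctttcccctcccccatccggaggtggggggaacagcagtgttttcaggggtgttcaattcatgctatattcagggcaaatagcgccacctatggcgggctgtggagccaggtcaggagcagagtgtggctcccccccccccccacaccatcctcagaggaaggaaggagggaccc
Cdkn2a, start of the p19Arf message, chr4:89294620-89294869 (minus strand): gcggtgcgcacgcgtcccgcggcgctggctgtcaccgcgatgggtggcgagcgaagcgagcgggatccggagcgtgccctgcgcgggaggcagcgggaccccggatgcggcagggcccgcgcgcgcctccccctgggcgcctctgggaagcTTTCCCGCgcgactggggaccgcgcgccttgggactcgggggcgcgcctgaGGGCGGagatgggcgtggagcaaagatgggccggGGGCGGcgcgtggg
Cdkn2b, start of the p15Ink4b message, chr4:89311033-89311282 (minus strand): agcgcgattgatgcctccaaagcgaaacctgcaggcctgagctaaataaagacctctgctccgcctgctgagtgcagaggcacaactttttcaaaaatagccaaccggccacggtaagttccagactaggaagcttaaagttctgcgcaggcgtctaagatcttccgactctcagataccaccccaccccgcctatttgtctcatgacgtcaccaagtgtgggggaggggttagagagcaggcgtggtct
Cdkn1a, start of transcript Cdkn1a-202, chr17:29090729-29090978 (plus strand): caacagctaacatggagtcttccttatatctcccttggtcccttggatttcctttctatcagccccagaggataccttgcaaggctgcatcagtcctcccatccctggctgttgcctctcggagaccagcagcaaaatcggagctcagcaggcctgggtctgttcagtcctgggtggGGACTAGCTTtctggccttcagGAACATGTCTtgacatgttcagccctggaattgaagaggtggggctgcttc
Capitals mark matches, on either strand, to the Sp1 GC box (GGGCGG), to 4 spellings of the E2F site (TTTCCCGC, TTTCGCGC, TTTGGCGC and TTTGCCGC), to the TATA box (TATAAA) or to the p53 half-site, and no match overlapped another. The p19Arf window held 2 GC boxes and 1 E2F match at 78.4% G and C. The windows of p16Ink4a (60%) and Cdkn2b (53.6%) held none of the 4 motifs. The Cdkn1a window, chosen for them, held 2 p53 half-site matches. The window of the other Cdkn1a start (transcripts Cdkn1a-201 and Cdkn1a-205), not printed, held 0, and those of Mdm2 and Trp53 held 1 each. Over all 32851 windows of this length, 32.7% held a GC box, 1.86% an E2F match, 12.4% a TATA box and 7.13% a p53 half-site. These matches describe the letters and were not tested for binding.

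**Figure D1:**
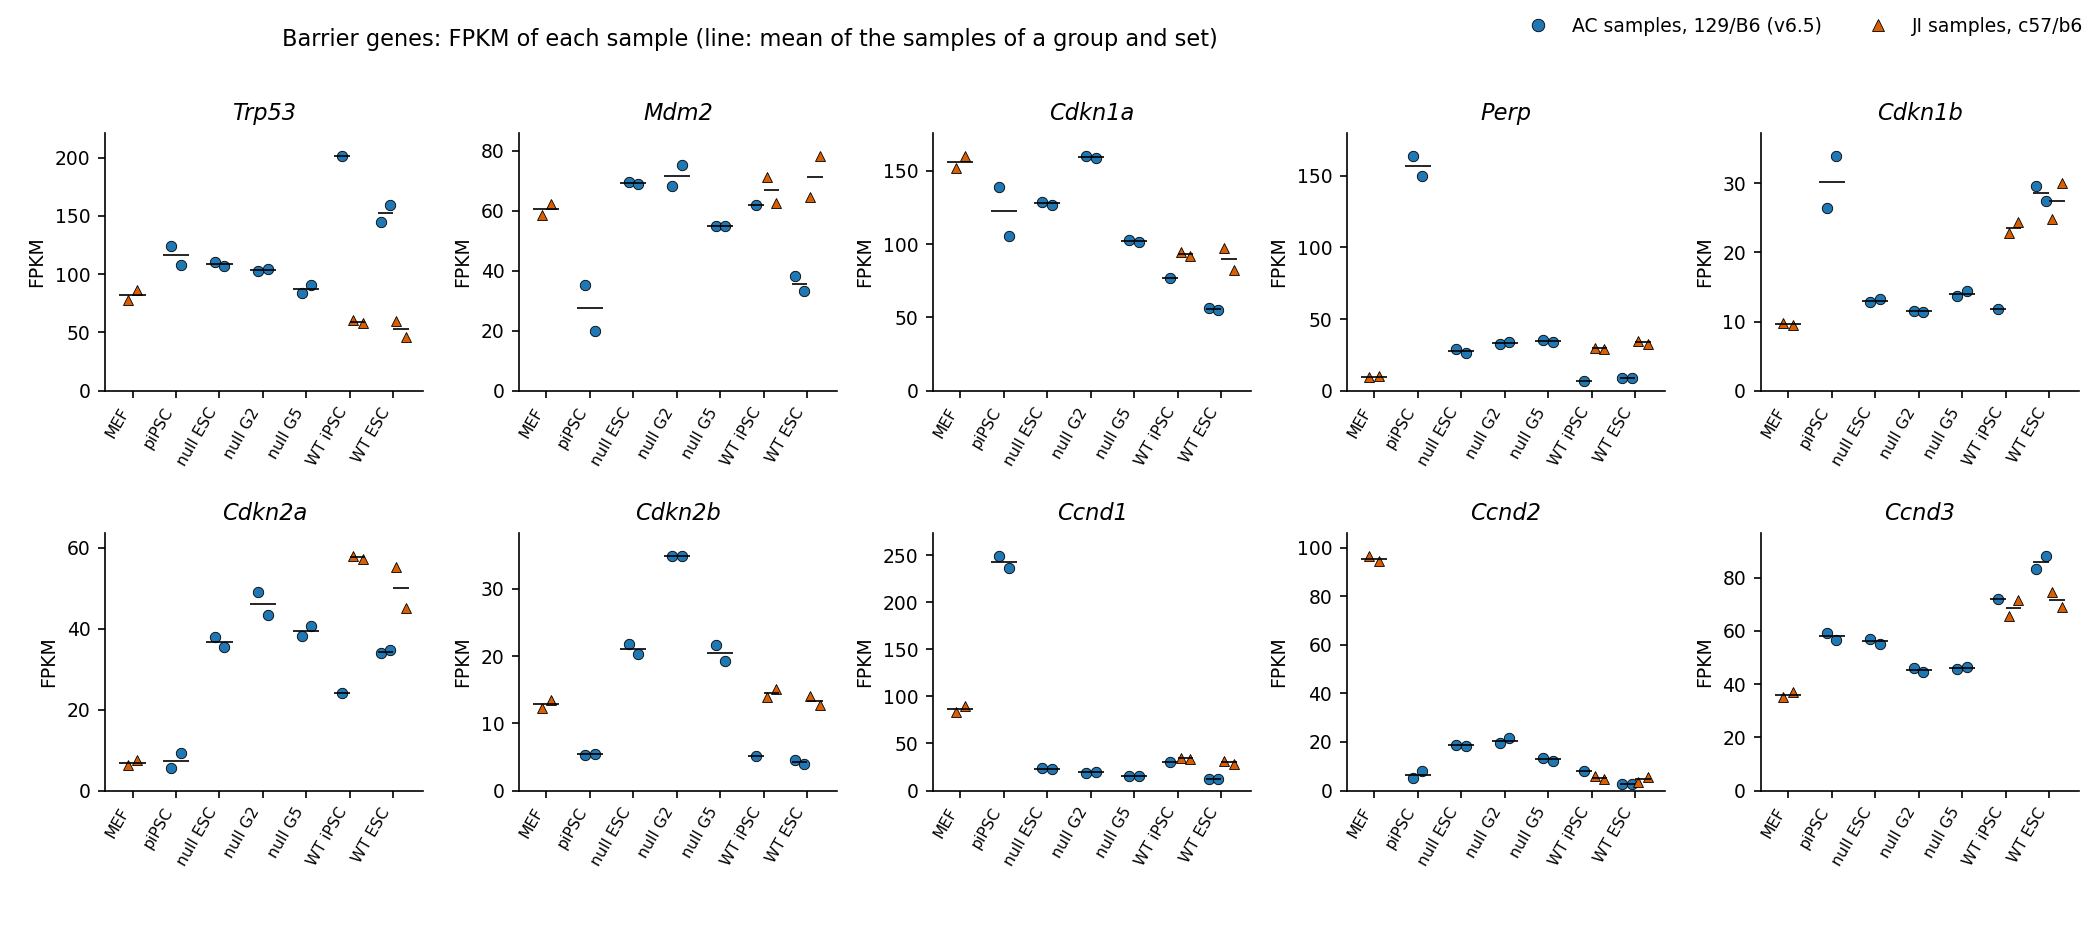
FPKM of the 10 genes in each sample, with a linear axis from 0 in each panel, groups from left to right, circles for AC samples, triangles for JI samples and a line at the mean of the samples of a group and set. Perp and Ccnd1 stand highest in piPSC (150 to 163 and 236 to 249 FPKM), Ccnd2 in MEF (94.4 to 96.6) and Cdkn2b in clone G2 (34.9).

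Changes are given on the scale of log2(FPKM + 1) with a standard error, from a limma fit of all 17 samples with terms for group and AC or JI set. A gene is said to have risen or fallen where its p, adjusted by Benjamini and Hochberg over 15298 genes, was under 0.05. Against WT pluripotent cells, 4 genes rose and 4 fell in MEF, and 4 rose and 4 fell in piPSC. Across all tested genes 81.6% passed in MEF (39.4% higher, 42.1% lower) and 67.3% in piPSC (31.8% higher, 35.5% lower). In Nanog-null ESC 6 rose and 3 fell against WT ESC, where 53.8% of all genes passed (27.4% higher, 26.4% lower). In Nanog-null iPSC 5 rose and 2 fell against WT iPSC, where 57.4% passed (28.7% in each direction). With so many genes called, the share of members called is close to the background in MEF and says little by itself, so what follows gives the size and direction of each change. MEF and piPSC share their WT samples, and Nanog-null ESC are set against some of these samples too.

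**Figure D2:**
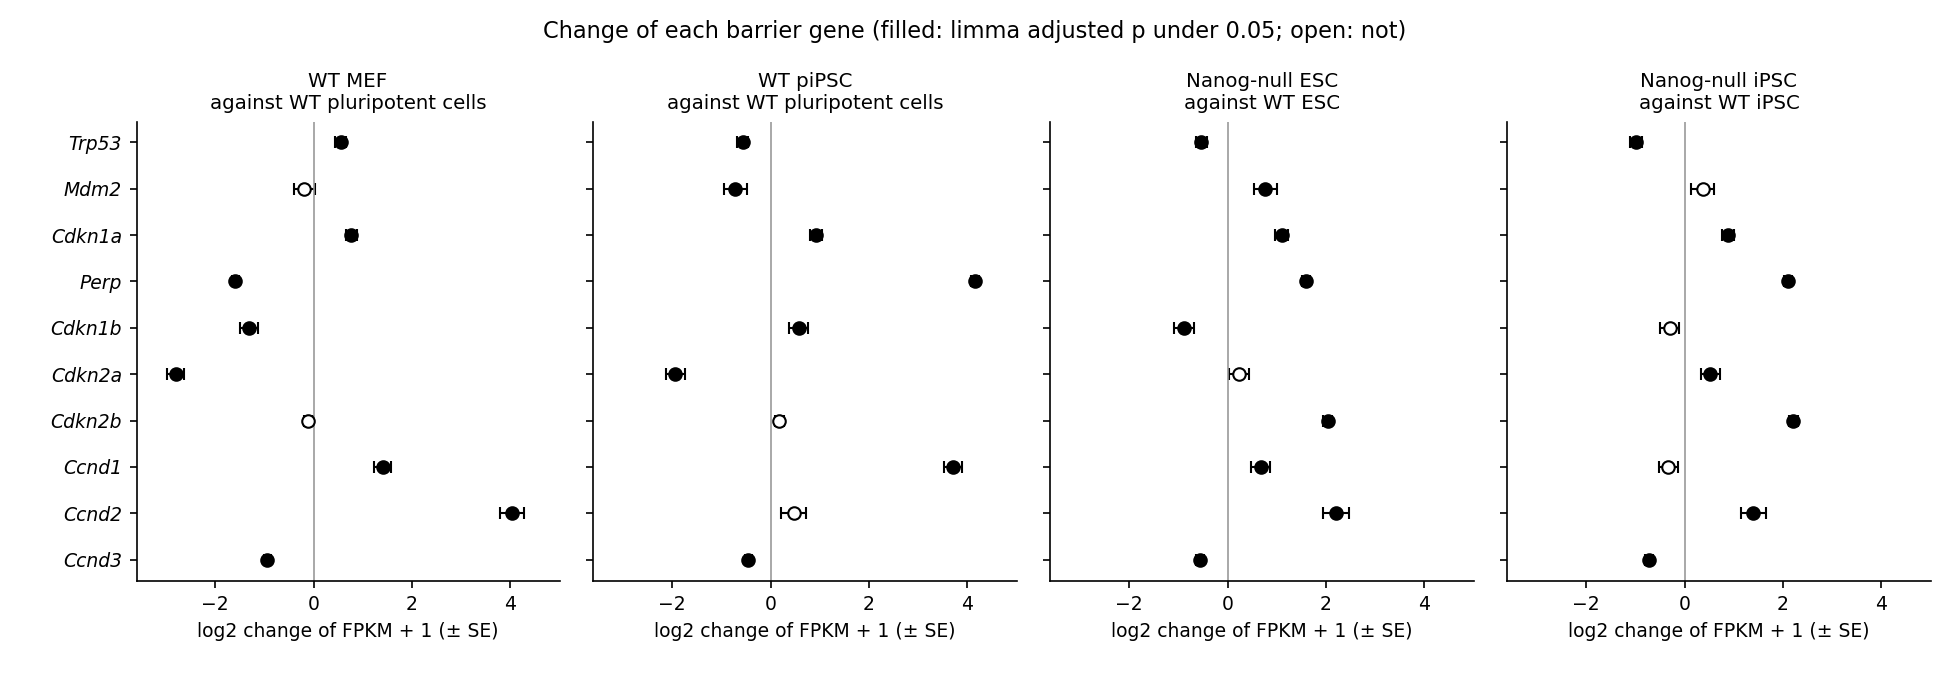
log2 change of FPKM + 1 with its standard error for each gene in 4 comparisons, with filled points for a limma adjusted p under 0.05. Perp and Ccnd1 lie farthest to the right in piPSC (4.16 and 3.71), Ccnd2 in MEF (4.03), and Cdkn2b lies near 2 in both Nanog-null comparisons (2.04 and 2.21).

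Trp53 was lower in every line lacking Nanog than in WT cells of the same set, and higher in MEF. The Nanog-null ESC samples had 110.1 and 107 FPKM, those of clone G2 102 and 105 and those of clone G5 83.8 and 90.3, against 201 in WT iPSC 1 and 145 and 159.7 in WT ESC 1 and 2. None of the 6 Nanog-null samples reached the lowest of these 3 WT samples. The change was -0.53 ± 0.12 in Nanog-null ESC and -0.99 ± 0.12 in Nanog-null iPSC (limma adjusted p = 0.00234 and 1.23e-05). Trp53 also fell in piPSC, at 125 and 108 FPKM (-0.57 ± 0.12, limma adjusted p = 0.000775). MEF had 78.0 and 86.2 FPKM, against 57.9 to 60.8 in WT iPSC 2 and 3 and 45.8 to 60.2 in WT ESC 3 and 4, and the change was 0.55 ± 0.11 (limma adjusted p = 0.000402). The 3 AC samples of WT pluripotent cells averaged 169 ± 29.2 FPKM (SD, n = 3) and the 4 JI samples 56.2 ± 7.02 (SD, n = 4), with no overlap. The direction of every Trp53 change therefore rests on comparing samples of the same set, and without the set term all 4 changes had the opposite sign and none passed.

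Mdm2, the ligase that degrades p53, was higher in Nanog-null ESC at 69.5 and 69.1 FPKM, against 38.1 and 33.2 in WT ESC 1 and 2. The change was 0.77 ± 0.23 (limma adjusted p = 0.0146). Leaving out any of those 4 samples took this p to between 0.0517 and 0.0795. Nanog-null iPSC had 54.9 to 75.3 FPKM, against 61.9 in WT iPSC 1 and 62.8 and 71.2 in WT iPSC 2 and 3, and these ranges overlapped (0.37 ± 0.23, limma adjusted p = 0.185). Without WT iPSC 1 the change was 0.89 and passed (limma adjusted p = 0.0125). In this and every other fit without WT iPSC 1, the WT iPSC left are JI samples and the set term rests on WT ESC alone. In piPSC Mdm2 was at 35.3 and 19.8 FPKM and passed as lower (-0.71 ± 0.23, limma adjusted p = 0.0138). That call was lost without WT iPSC 1 (-0.37) or without piPSC 2 (-0.31), and against the AC samples of WT ESC alone the change was -0.41 (limma adjusted p = 0.107). MEF had 58.6 and 62.4 FPKM, within 0.19 of WT pluripotent cells on the log2 scale (SE 0.21, limma adjusted p = 0.436).

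Cdkn1a, the main p53-driven inhibitor of the cell cycle, was the one CDK inhibitor among the members that rose in all 4 comparisons. It had 152 and 160.0 FPKM in MEF, 139 and 106 in piPSC, and 129 and 127 in Nanog-null ESC. Clone G2 had 160.0 and 159 FPKM and clone G5 had 103 and 102. WT iPSC 1 had 76.7 FPKM and WT ESC 1 and 2 had 56.4 and 55.4, while the 4 JI samples of WT pluripotent cells had 82.3 to 97.5. Every MEF, piPSC and Nanog-null sample lay above every WT pluripotent sample, across both sets. The changes were 0.77 ± 0.12 in MEF, 0.92 ± 0.12 in piPSC, 1.10 ± 0.13 in Nanog-null ESC and 0.88 ± 0.12 in Nanog-null iPSC, with limma adjusted p between 1.32e-05 and 5.07e-05. The message of Cdkn1a thus stood higher in the Nanog-null lines and piPSC while that of Trp53 stood lower.

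Perp, a membrane protein of desmosomes and a death effector downstream of p53, took the largest change of the 10 genes. It was at 163 and 149.7 FPKM in piPSC, against 6.91 in WT iPSC 1 and 8.74 and 8.62 in WT ESC 1 and 2. The change was 4.16 ± 0.08 (limma adjusted p = 3.73e-13). Nanog-null ESC had 28.9 and 26.6 FPKM, clone G2 had 32.5 and 34.2 and clone G5 had 35.2 and 34.3. These values all exceed those of the AC samples of WT cells, with changes of 1.59 ± 0.08 in Nanog-null ESC and 2.11 ± 0.08 in Nanog-null iPSC (limma adjusted p = 9.83e-09 and 4.83e-10). They lie close to those of the JI samples of WT pluripotent cells, which had 28.9 to 34.8 FPKM, so the call again depends on the WT samples of the same set. Perp fell in MEF, with 9.36 and 10.2 FPKM (-1.60 ± 0.07, limma adjusted p = 2.75e-10).

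The other p53 targets did not move as one group. Of a list of 22 further target genes, 12 rose and 3 fell in Nanog-null ESC, beside 27.4% and 26.4% of all genes, with a median change of 0.43 over the list and -0.01 over all genes. In Nanog-null iPSC 7 rose and 4 fell, beside 28.7% of all genes in each direction, with a median of 0.07, against -0.02 over all genes. Plk2, a stress-induced kinase, had 30.8 and 33.9 FPKM in Nanog-null ESC, against 5.22 and 5.27 in WT ESC 1 and 2 (2.13, limma adjusted p = 0.000178). Btg2, an antiproliferative gene, had 36.0 to 41.9 FPKM in Nanog-null iPSC, against 12.1 in WT iPSC 1 (1.75, limma adjusted p = 2.09e-08). Dram1, a regulator of autophagy, had 4.13 to 7.54 FPKM in Nanog-null iPSC and 0.598 in WT iPSC 1 (2.08, limma adjusted p = 1.21e-08). In MEF 6 of the 22 rose and 12 fell, beside 39.4% and 42.1% of all genes. In piPSC 8 rose and 9 fell, beside 31.8% and 35.5%, so the list was near the background there. Pmaip1 (Noxa, which promotes apoptosis) fell in piPSC and MEF, to 2.61 to 2.88 FPKM in piPSC, against 28.2 to 35.0 in the AC samples of WT pluripotent cells (-3.13, limma adjusted p = 7.69e-12), and to 14.4 to 14.6 FPKM in MEF, against 77.1 to 83.9 in the JI samples of WT pluripotent cells (-2.39, limma adjusted p = 2.22e-11).

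**Figure D3:**
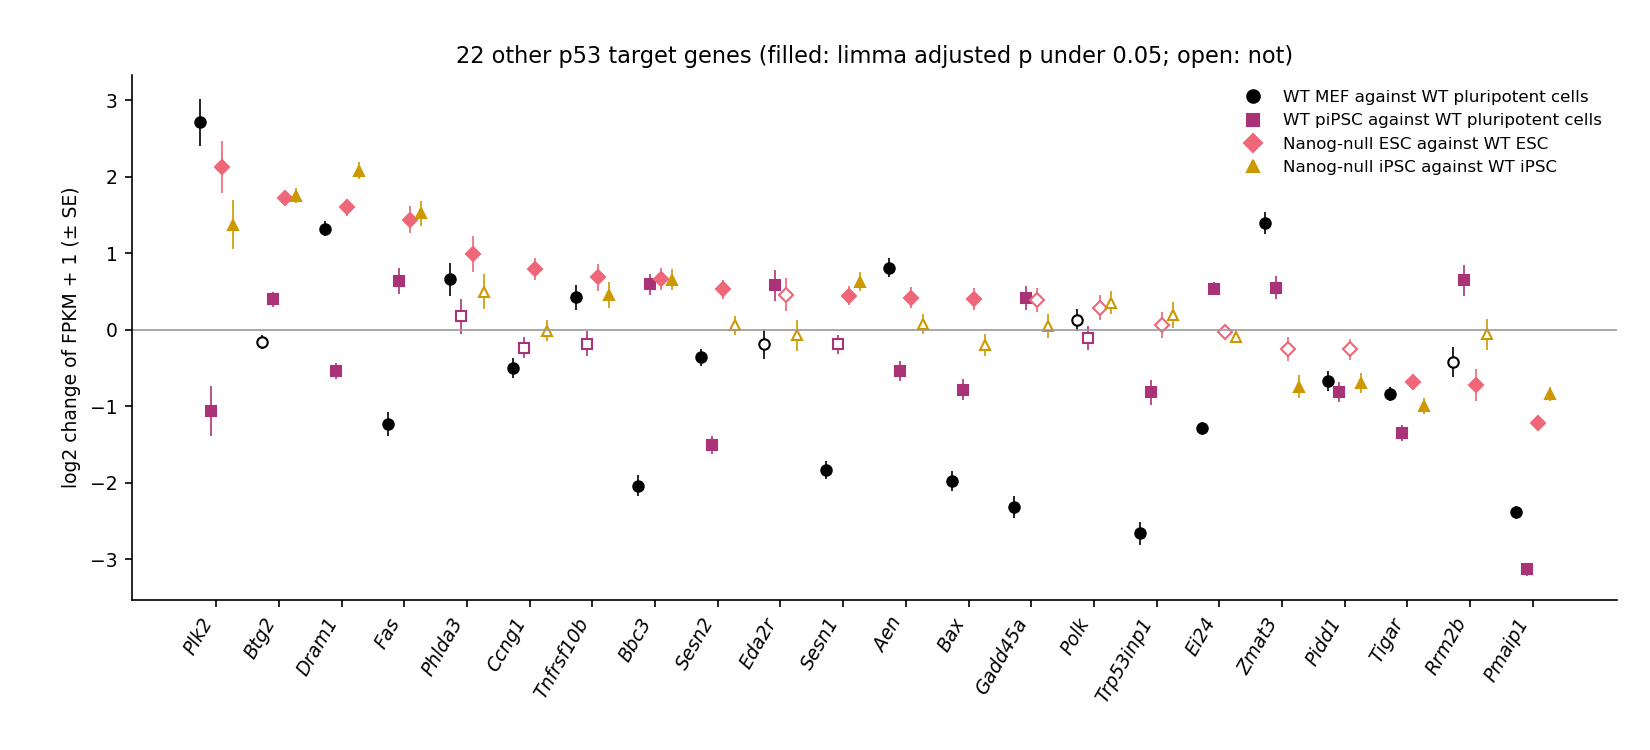
log2 change of FPKM + 1 with its standard error for 22 p53 target genes other than the members, in 4 comparisons, ordered by the change in Nanog-null ESC, with filled points for a limma adjusted p under 0.05. Plk2 stands at 2.71 in MEF and 2.13 in Nanog-null ESC and below 0 in piPSC, and Pmaip1 is below 0 in all 4 comparisons.

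Of 11 tested regulators and relatives of p53, 6 fell and 2 rose in MEF, and 6 fell and 1 rose in piPSC. In Nanog-null ESC 5 of the 11 fell and 2 rose, and in Nanog-null iPSC 7 fell and 1 rose. Among all tested genes 42.1%, 35.5%, 26.4% and 28.7% fell in these 4 comparisons, and 39.4%, 31.8%, 27.4% and 28.7% rose. Chek1, a kinase of the DNA replication checkpoint, had 26.1 and 28.5 FPKM in Nanog-null ESC, against 62.5 and 63.0 in WT ESC 1 and 2 (-1.14, limma adjusted p = 0.00166). Chek2, the kinase that signals double-strand breaks to p53, had 1.56 and 2.50 FPKM in MEF, against 24.5 to 26.3 in the JI samples of WT pluripotent cells (-3.13, limma adjusted p = 2.57e-10).

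Cdkn2a was low in MEF and piPSC and high in every established ESC and iPSC line. MEF had 6.18 and 7.46 FPKM, from 40 and 109 fragments, and piPSC had 5.54 and 9.14 FPKM. Nanog-null ESC had 37.9 and 35.5, clone G2 49.1 and 43.3 and clone G5 38.2 and 40.6 FPKM. WT pluripotent cells had 24.0 to 34.6 FPKM in the AC set and 45.0 to 57.9 in the JI set, with no overlap with MEF or piPSC. The change was -2.81 ± 0.18 in MEF and -1.94 ± 0.19 in piPSC (limma adjusted p = 7.70e-09 and 1.35e-06). In bulk samples fewer cells with the message and less message per cell cannot be told apart.

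Between Nanog-null and WT lines the change of Cdkn2a was 0.24 ± 0.20 in Nanog-null ESC (limma adjusted p = 0.339) and 0.52 ± 0.19 in Nanog-null iPSC (limma adjusted p = 0.0337). The second call was lost without WT iPSC 1, where the change was 0.10 (limma adjusted p = 0.727), and without any of the 4 Nanog-null iPSC samples (p of 0.0526 to 0.0793).

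Cdkn2b, the neighbour, rose in both kinds of Nanog-null line and did not pass in MEF or piPSC. Nanog-null ESC had 21.7 and 20.4 FPKM, both samples of clone G2 had 34.9 and those of clone G5 had 21.6 and 19.2, against 5.13 in WT iPSC 1 and 4.60 and 4.01 in WT ESC 1 and 2. The 4 JI samples of WT pluripotent cells had 12.7 to 15.2 FPKM, so all 6 Nanog-null samples lay above all 7 WT pluripotent samples. The change was 2.04 ± 0.09 in Nanog-null ESC and 2.21 ± 0.09 in Nanog-null iPSC (limma adjusted p = 4.88e-09 and 1.29e-09). MEF had 12.3 and 13.4 FPKM (-0.11 ± 0.09, limma adjusted p = 0.264) and piPSC 5.30 and 5.48 FPKM (0.17 ± 0.09, limma adjusted p = 0.106).

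As a ratio of FPKM, Cdkn2b to Cdkn2a was 1.80 and 1.99 in MEF, 0.599 and 0.956 in piPSC and 0.474 to 0.806 in the Nanog-null samples, against 0.116 to 0.213 in AC and 0.241 to 0.282 in JI samples of WT pluripotent cells. The balance within the locus thus differed between the groups: Cdkn2b was the higher message only in MEF, and Cdkn2a the higher one in all other samples. The RefSeq span of a noncoding gene, Gm12610, overlaps Cdkn2b on the other strand. The TruSeq v2 kit does not mark strand, so reads of both genes cannot be told apart where they overlap. Gm12610 itself was listed at 0.266 FPKM or less in every sample.

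**Figure D4:**
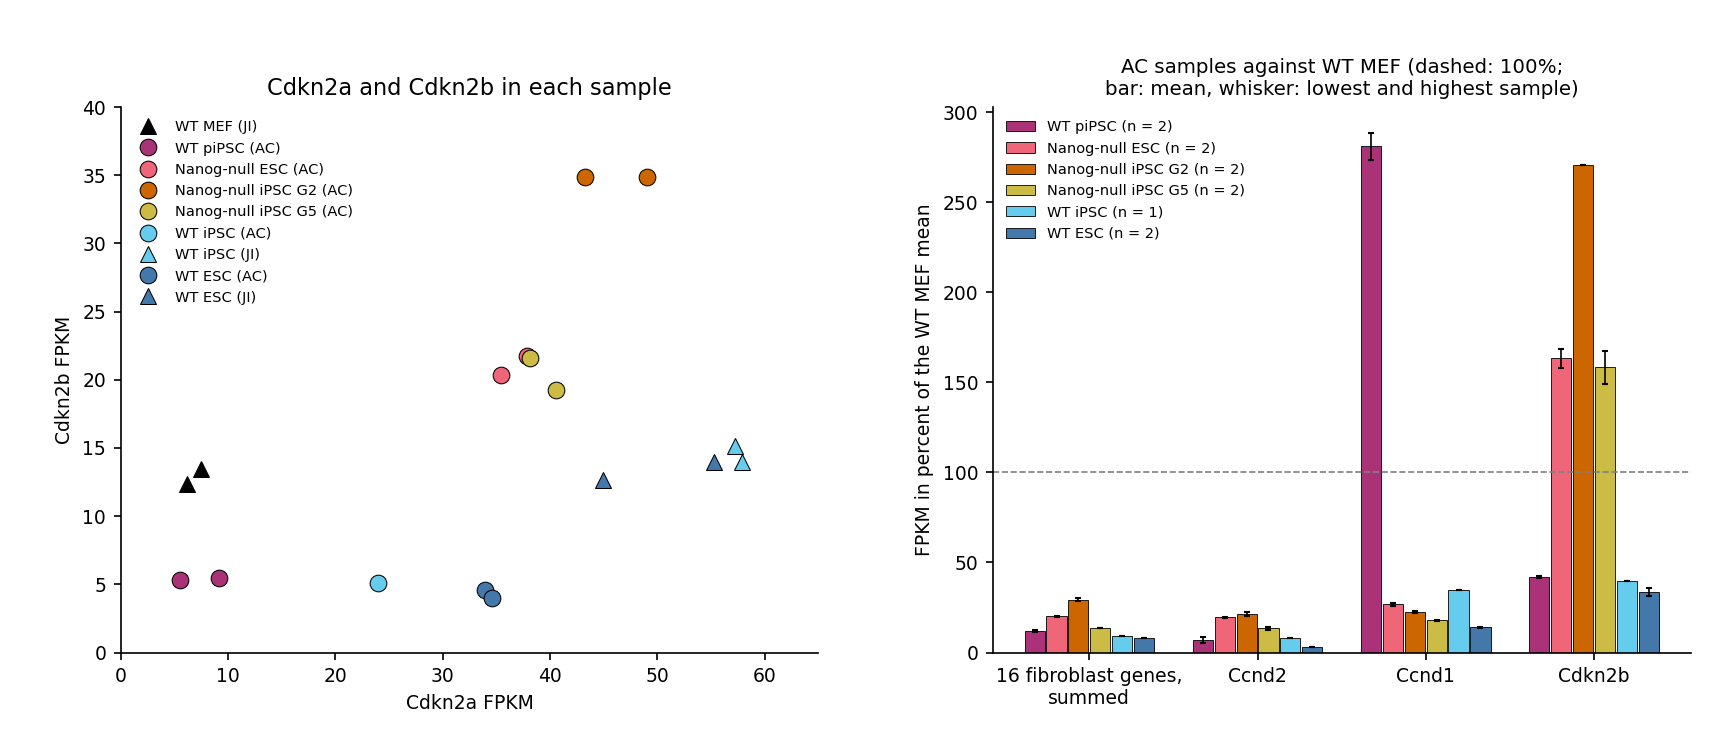
Left, FPKM of Cdkn2b against Cdkn2a in each sample, with circles for AC and triangles for JI samples. Right, the summed FPKM of 16 fibroblast genes and the FPKM of 3 members in AC samples, in percent of the mean of WT MEF, which are JI samples, with whiskers from the lowest to the highest sample: Cdkn2b in the Nanog-null samples stands at 149% to 271% of MEF, Ccnd1 in piPSC at 274% to 288%, and Ccnd2 at no more than 22.7% in any AC sample.

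Feeder cells are fibroblasts, and fibroblast messages were higher in the Nanog-null samples. The 16 fibroblast genes summed to 20.0% to 20.1% of the MEF level in Nanog-null ESC, 28.4% to 30.0% in clone G2 and 13.6% to 13.9% in clone G5, against 9.28% in WT iPSC 1 and 7.79% to 8.07% in WT ESC 1 and 2. All 16 reached 1 FPKM in the Nanog-null samples and in WT iPSC 1, and 14 did in WT ESC 1 and 2. Of the 16, 15 rose in Nanog-null ESC and 14 in Nanog-null iPSC, beside 27.4% and 28.7% of all genes. Cdkn2b in the Nanog-null samples was at 149% to 271% of its MEF level, Cdkn2a at 520% to 719% and Cdkn1a at 65.0% to 102%. These percentages set AC samples against MEF of the JI set and so cross set and strain. In WT pluripotent cells alone the AC and JI samples averaged 4.58 and 13.96 FPKM of Cdkn2b, 30.8 and 53.8 of Cdkn2a and 62.8 and 91.6 of Cdkn1a. The MEF sequenced here are not the feeders themselves, and the part of feeder RNA in the values of these 3 genes was not tested.

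Of 10 known regulators of the Ink4 locus, 7 rose and 2 fell in MEF, 3 rose and 5 fell in piPSC, 4 rose and 3 fell in Nanog-null ESC, and 3 rose and 1 fell in Nanog-null iPSC. Among all genes 39.4%, 31.8%, 27.4% and 28.7% rose in these comparisons, and 42.1%, 35.5%, 26.4% and 28.7% fell. The median change over the list was 1.61 in MEF, against -0.06 over all genes. It was -0.47 in piPSC, 0.31 in Nanog-null ESC and 0.02 in Nanog-null iPSC. With 10 genes that include both repressors and activators, the counts say little about the list. Cbx7, a Polycomb protein that silences the locus, had 0.528 and 0.633 FPKM in MEF, against 45.0 to 51.9 in the JI samples of WT pluripotent cells (-4.97, limma adjusted p = 9.96e-14). It had 6.85 and 8.10 FPKM in piPSC, against 61.6 to 63.5 in the AC samples of WT pluripotent cells (-2.91, limma adjusted p = 1.66e-11). Id1, an inhibitor of the Ets and bHLH activators of p16Ink4a, had 111 and 124 FPKM in piPSC, against 1.09 to 2.97 in the same WT samples (5.44, limma adjusted p = 1.48e-10). Ets1, one of those activators, had 3.23 and 3.62 FPKM in Nanog-null ESC, against 0.645 and 0.805 in WT ESC 1 and 2 (1.25, limma adjusted p = 2.37e-05), while MEF had 33.9 and 34.5 FPKM. Ezh2, the Polycomb methyltransferase, fell in Nanog-null iPSC, with 34.1 to 41.2 FPKM, against 75.5 in WT iPSC 1 (-1.07, limma adjusted p = 2.08e-07).

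Cdkn1b (p27) went the other way from Cdkn1a in MEF and Nanog-null ESC. It had 9.78 and 9.48 FPKM in MEF, against 22.8 to 30.0 in the JI samples of WT pluripotent cells (-1.31 ± 0.19, limma adjusted p = 2.02e-05). Nanog-null ESC had 12.8 and 13.2 FPKM, against 29.6 and 27.4 in WT ESC 1 and 2 (-0.88 ± 0.20, limma adjusted p = 0.00297). Nanog-null iPSC had 11.4 to 14.4 FPKM, WT iPSC 1 had 11.8 and WT iPSC 2 and 3 had 22.8 and 24.4. WT iPSC 1 thus sat with the Nanog-null lines and away from every other WT pluripotent sample. Against all WT iPSC the change was -0.30 ± 0.20 (limma adjusted p = 0.212), and without WT iPSC 1 it was -0.91 (limma adjusted p = 0.000389). In piPSC, at 26.4 and 33.9 FPKM, Cdkn1b passed as higher (0.57 ± 0.20, limma adjusted p = 0.0215), a call lost without WT iPSC 1 (0.17) or without piPSC 2 (0.39).

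Of 4 CDK inhibitors outside the members, 2 rose and 2 fell in MEF, and 1 rose and 2 fell in piPSC. In Nanog-null ESC 1 rose and 0 fell, and in Nanog-null iPSC 1 rose and 1 fell. Among all genes 39.4%, 31.8%, 27.4% and 28.7% rose in these 4 comparisons, and 42.1%, 35.5%, 26.4% and 28.7% fell. Cdkn1c (p57), the imprinted relative of Cdkn1a and Cdkn1b, rose in all 4 comparisons. It had 63.4 and 79.1 FPKM in piPSC, against 2.31 to 6.91 in the AC samples of WT pluripotent cells (3.89, limma adjusted p = 1.18e-07). Nanog-null ESC had 53.3 and 60.5 FPKM, against 2.31 and 3.18 in WT ESC 1 and 2 (3.64, limma adjusted p = 9.72e-07). MEF had 29.6 and 31.2 FPKM, against 10.5 to 18.9 in the JI samples of WT pluripotent cells (1.06, limma adjusted p = 0.00347).

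The make-up of the D cyclins differed between the groups. Ccnd3 made up 61.7% to 86.0% of the summed FPKM of the 3 genes in WT pluripotent cells, whereas Ccnd1 made up 78.5% and 79.5% in piPSC, and Ccnd3 was down to 16.3% and 16.8% in MEF. The sum was 215 and 221 FPKM in MEF, 301 and 314 in piPSC, 96.1 and 99.8 in Nanog-null ESC and 74.2 to 85.9 in Nanog-null iPSC, against 98.4 to 109.7 in WT pluripotent cells. Nanog-null iPSC had the lowest sums and piPSC the highest.

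**Figure D5:**
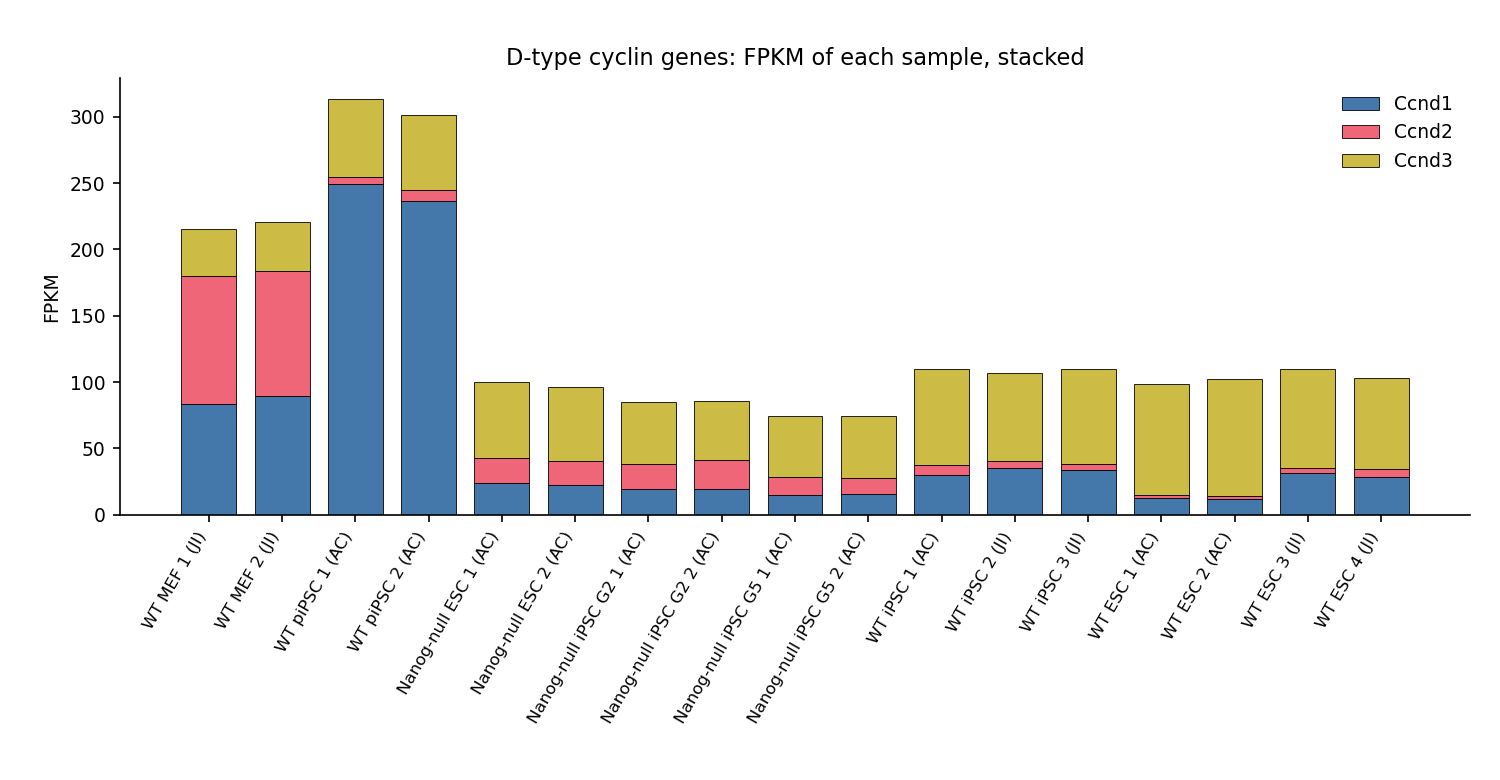
Stacked bars of the FPKM of Ccnd1, Ccnd2 and Ccnd3 in each sample, on a linear axis from 0, with the set in brackets. Ccnd3 is the largest part in all ESC and iPSC samples, Ccnd1 in piPSC (79.5% and 78.5%) and Ccnd2 in MEF (44.9% and 42.8%).

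Ccnd1 had 249 and 236 FPKM in piPSC, against 29.9 in WT iPSC 1 and 12.3 and 11.7 in WT ESC 1 and 2. The change was 3.71 ± 0.19 (limma adjusted p = 2.24e-09). The MEF level was 83.5 and 89.4 FPKM, above the 28.7 to 35.0 of the JI samples of WT pluripotent cells (1.40 ± 0.18, limma adjusted p = 7.25e-06) and below piPSC. In piPSC 5 to 7 of the 16 fibroblast genes reached 1 FPKM, and Col1a1, the main collagen of fibroblasts, was at 0.319 and 0.364 FPKM, against 1230 and 1248 in MEF. Against WT pluripotent cells 4 of the 16 rose and 11 fell in piPSC, beside 31.8% and 35.5% of all genes. The 16 genes summed to 599 to 649 FPKM in piPSC and 5251 to 5310 in MEF, against 412 to 426 in WT ESC 1 and 2 and 490 in WT iPSC 1. Myc was at 1237 and 1506 FPKM in piPSC, against 2.84 to 6.85 in the AC samples of WT pluripotent cells, and whether the message comes from the retrovirus cannot be read from these files.

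In Nanog-null cells the direction of Ccnd1 depended on the WT samples. Nanog-null ESC had 23.9 and 22.3 FPKM, above the 12.3 and 11.7 of WT ESC 1 and 2 (0.68 ± 0.20, limma adjusted p = 0.0111), a call lost without WT ESC 1, WT ESC 2 or Nanog-null ESC 1. Nanog-null iPSC had 15.1 to 19.7 FPKM, below the 29.9 of WT iPSC 1 and the 35.0 and 33.4 of WT iPSC 2 and 3 (-0.33 ± 0.19, limma adjusted p = 0.161). Within the AC set, where WT iPSC is 1 sample, the change was -0.75. Without WT iPSC 1 it was 0.31 (limma adjusted p = 0.0218), though every WT iPSC sample lay above every Nanog-null iPSC sample. That fit has only JI samples of WT iPSC, and its set term rests on WT ESC alone. Tested directly, the effect of the Nanog genotype differed between iPSC and ESC for Ccnd1 and Perp (2 of the 10 genes, beside 11% of all genes). The difference for Ccnd1 was -1.00, and -0.58 without WT iPSC 1 (limma adjusted p = 0.0193 and 0.00362).

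Ccnd2 had 96.6 and 94.4 FPKM in MEF, against 3.61 to 5.92 in the JI samples of WT pluripotent cells (4.03 ± 0.24, limma adjusted p = 3.62e-09). Nanog-null ESC had 18.9 and 18.5 FPKM, clone G2 19.5 and 21.6 and clone G5 13.4 and 12.2, against 7.92 in WT iPSC 1 and 2.67 and 2.68 in WT ESC 1 and 2. All 6 exceeded every WT pluripotent sample of either set. The change was 2.20 ± 0.26 in Nanog-null ESC and 1.40 ± 0.26 in Nanog-null iPSC (limma adjusted p = 1.86e-05 and 0.000482). In Nanog-null iPSC it was 2.06 without WT iPSC 1, and 0.95 within the AC set, where WT iPSC 1 is the one WT iPSC sample. As a share of the level in MEF of the JI set, Ccnd2 was at 19.4% to 19.8% in Nanog-null ESC, 20.4% to 22.7% in clone G2 and 12.7% to 14.1% in clone G5, beside 20.0% to 20.1%, 28.4% to 30.0% and 13.6% to 13.9% for the 16 fibroblast genes in the same samples. Of these 3 groups, clone G2 was highest and clone G5 lowest for both. Ccnd2 did not pass between G2 and G5 (0.65, limma adjusted p = 0.263) or between Nanog-null iPSC and Nanog-null ESC (-0.19, limma adjusted p = 0.728). The part of feeder RNA in the rise of Ccnd2 was not tested. In piPSC Ccnd2 was at 4.96 and 8.06 FPKM (0.47 ± 0.26, limma adjusted p = 0.120). It passed without WT iPSC 1 (0.92, limma adjusted p = 0.00283) and without piPSC 1 (0.77, limma adjusted p = 0.0472).

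Ccnd3, the main D cyclin of WT pluripotent cells, fell in all 4 comparisons. It had 35.0 and 37.1 FPKM in MEF, 59.3 and 56.8 in piPSC, 57.03 and 55.3 in Nanog-null ESC and 44.6 to 46.3 in Nanog-null iPSC, against 65.8 to 88.2 in WT pluripotent cells of both sets. No MEF, piPSC or Nanog-null sample reached the lowest WT pluripotent sample. The changes were -0.94 ± 0.07 in MEF, -0.45 ± 0.08 in piPSC, -0.56 ± 0.08 in Nanog-null ESC and -0.72 ± 0.08 in Nanog-null iPSC, with limma adjusted p between 4.54e-08 and 0.000190.

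Proliferation genes and the cyclin and CDK partners were mostly lower in the same comparisons, while the Rb family and E2F genes were mixed in MEF and piPSC. All 8 proliferation genes fell in MEF and in Nanog-null iPSC, and 7 of 8 fell in piPSC and in Nanog-null ESC, beside 42.1% of all genes in MEF, 28.7% in Nanog-null iPSC, 35.5% in piPSC and 26.4% in Nanog-null ESC. Their summed FPKM was 296 to 298 in MEF, 380 to 413 in piPSC, 644 to 679 in Nanog-null ESC and 508 to 677 in Nanog-null iPSC, against 1109 to 1219 in AC and 1417 to 1729 in JI samples of WT pluripotent cells. Of 8 cyclin and CDK partners, 6 fell and 2 rose in MEF, and 6 fell and 1 rose in piPSC. In Nanog-null iPSC 6 fell and 0 rose, and in Nanog-null ESC 5 fell and 2 rose. Cdk1, the mitotic kinase, had 166 and 168 FPKM in Nanog-null ESC, against 267 and 281 in WT ESC 1 and 2 (-0.68, limma adjusted p = 0.000145). Of 8 Rb family and E2F genes, 2 rose and 2 fell in MEF and 4 rose and 4 fell in piPSC. In each Nanog-null comparison 4 of the 8 fell and 0 rose. Among all genes 39.4% rose in MEF, 31.8% in piPSC, 27.4% in Nanog-null ESC and 28.7% in Nanog-null iPSC. E2f1, a transcription factor held by the Rb protein, had 8.86 to 11.7 FPKM in Nanog-null iPSC, against 27.0 in WT iPSC 1 (-1.25, limma adjusted p = 8.25e-07).

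Set against piPSC directly, Nanog-null iPSC differed in 9 of the 10 genes, with 4 higher and 5 lower, where 70.5% of all genes passed (36.5% higher, 34% lower). Ccnd1 was at 15.1 to 19.7 FPKM in Nanog-null iPSC, against 249 and 236 in piPSC (-3.73 ± 0.18, limma adjusted p = 8.85e-10). Perp was at 32.5 to 35.2 FPKM, against 163 and 149.7 (-2.17 ± 0.07, limma adjusted p = 2.94e-11). Cdkn2a was at 38.2 to 49.1 FPKM, against 5.54 and 9.14 (2.42 ± 0.18, limma adjusted p = 7.08e-08), and Cdkn2b at 19.2 to 34.9 FPKM, against 5.30 and 5.48 (2.12 ± 0.09, limma adjusted p = 1.69e-10). Cdkn1a did not pass (0.07 ± 0.12, limma adjusted p = 0.582). It was called higher by edgeR with TMM normalization (edgeR adjusted p = 0.0216) but not with RLE (edgeR adjusted p = 0.0837). For Trp53 limma gave -0.29 ± 0.11 (limma adjusted p = 0.0306). With TMM edgeR made no call (edgeR adjusted p = 0.0834), and with RLE it called Trp53 lower (edgeR adjusted p = 0.0270). The limma call was lost without piPSC 1, G2 1, G2 2 or G5 1 (p of 0.0526 to 0.259).

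Between Nanog-null iPSC and Nanog-null ESC 3 of the 10 genes passed, beside 10.8% of all genes (6.19% higher, 4.62% lower). Cdkn2b (0.33 ± 0.09) and Perp (0.29 ± 0.07) were higher and Ccnd3 (-0.29 ± 0.07) lower in the iPSC, with limma adjusted p of 0.0266, 0.0231 and 0.0212. For Cdkn2b this is clone G2 alone, since clone G5 had 21.6 and 19.2 FPKM, against 21.7 and 20.4 in Nanog-null ESC. Each of the 3 calls was lost without Nanog-null ESC 1, without Nanog-null ESC 2 and without any of 3 of the 4 iPSC samples (p of 0.0520 to 0.276). Between the clones, Cdkn2b was higher in G2 than in G5 at 34.9 FPKM in both samples, against 21.6 and 19.2 (0.75 ± 0.10, limma adjusted p = 0.000774). Cdkn1a was higher too, at 160.0 and 159 FPKM, against 103 and 102 (0.64 ± 0.13, limma adjusted p = 0.0143), where 5.36% of all genes passed (3.14% higher, 2.22% lower). The Cdkn1a call was lost when any of the 4 samples was left out (p of 0.0940 to 0.114). Among the 22 other p53 targets Ccng1 (0.97, limma adjusted p = 0.00226), Fas (0.96, limma adjusted p = 0.00839) and Dram1 (0.64, limma adjusted p = 0.00740) were higher in G2, and 10 of the 16 fibroblast genes were higher in G2 as well. Each clone stands for itself, so these values describe 2 clones and not their kind.

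WT iPSC and WT ESC differed in none of the 10 genes by limma, while 1.02% of all genes passed. At an unadjusted p under 0.05 there were 5, and edgeR called 3 (beside 8.6% of all genes), with Ccnd1 and Ccnd2 higher and Cdkn1b lower in WT iPSC. WT iPSC 1 stood apart: Cdkn1b was at 11.8 FPKM, against 27.4 and 29.6 in WT ESC 1 and 2, Ccnd1 at 29.9, against 12.3 and 11.7, and Mdm2 at 61.9, against 38.1 and 33.2. Within the AC set 8 of the 10 passed by limma, beside 6191 of all 15298 genes, but WT iPSC 1 is the only WT iPSC sample there and was assumed to vary like the other groups. Within the JI set, with 2 samples against 2, limma called 0 of all genes (945 at an unadjusted p under 0.05).

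Over the 17 samples, the gene with the pattern most like each member was found by the root mean square difference of centred log2(FPKM + 1) values. Ccnd2 was nearest to Fbln2 (0.22), an extracellular matrix gene, while its own spread was 1.38. Cdkn2b was nearest to Btg2 (0.31, own spread 0.88), Ccnd1 to Rab8b (0.29, own spread 1.27), Ccnd3 to Mtbp (0.10, own spread 0.38) and Perp to Hopx (0.42, own spread 1.21). These are descriptions over samples that share sets and groups.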

How the data were processed

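RNA-seq was deposited for 17 mouse samples. Per the labels' protocols, RNA with a RIN above 7.5 was made into TruSeq v2 libraries and sequenced on HiSeq instruments. Per the submitters' processing notes, TopHat2 2.0.7, Bowtie2 2.0.5 and Cuffdiff 2.1.1 were used, and mm10 and NCBIM37 are named with no role given. The authors deposited, per the file headers, an estimated count of fragments (97.9% to 98.9% whole to within 0.01), a scaled count and the FPKM of each gene. The FPKM already carry the authors' scaling, of 0.416 to 3.12 per fragment. Their sum over all genes differed between samples. It was 497753 and 504255 in MEF, 525912 to 667351 in AC samples and 1.08e+06 to 1.61e+06 in JI samples of WT pluripotent cells.

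Groups and replicate numbers came from titles and the AC and JI sets from sample codes. The members, gene lists and tests were chosen with earlier results of these data known. No label says that replicates were separate cultures, so p-values measure only the spread between these samples. Replicates of a set differed beyond sampling noise (chi-square per gene of 1.58 to 29.9).

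limma 3.58.1 (R 4.3.3) was fitted to log2(FPKM + 1), a scale that understates changes of low genes, with group and set terms over 17 samples (9 residual degrees of freedom). It covered 15298 genes, after 13 with the status FAIL and 6 with HIDATA were left out, with a Benjamini-Hochberg threshold of 0.05. Each clone of Nanog-null iPSC was a group of its own, and contrasts of Nanog-null iPSC took their mean, so p-values leave out the spread between clones. WT pluripotent cells are the mean of the WT ESC and WT iPSC terms. Alternatives were edgeR 4.0.16 (quasi-likelihood, TMM or RLE) on the estimated counts rounded to whole numbers, other pseudocounts, filters, normalization and sample sets, a replicate block and leaving out each sample. Scripts were tested on simulated data. From each context list, up to 3 called genes with the largest change in a comparison and no overlap between the samples compared could be named. The overlap was read over all samples of the groups compared, AC and JI together. Nanog, Col1a1, Myc and Gm12610 were read as values, chosen after their values were seen.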

Additional observations from a re-analysis of the deposited data

Results flagged for a closer look

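For 2 of the 10 genes the effect of losing Nanog differed between iPSC and ESC, by the interaction term of the limma fit, where 11% of all genes passed. For Perp the change was 2.11 in iPSC and 1.59 in ESC, a difference of 0.52 ± 0.10 (limma adjusted p = 0.00535, edgeR adjusted p = 0.00858). Without Nanog-null ESC 2 it was 0.46 (limma adjusted p = 0.0520). For Ccnd1 the change was -0.33 in iPSC and 0.68 in ESC, a difference of -1.00 ± 0.24 (limma adjusted p = 0.0193, edgeR adjusted p = 0.00454). Without Nanog-null ESC 1 it was -0.96 (limma adjusted p = 0.102), and without Nanog-null ESC 2 it was -1.05 (limma adjusted p = 0.0702). Without WT iPSC 1 the difference shrank to -0.58 (limma adjusted p = 0.00362). WT iPSC 1, with 29.9 FPKM of Ccnd1, is the one AC sample of WT iPSC.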

How the results depend on the processing

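Over settings other than leaving out a sample, 899 of 970 values of single genes kept their direction and their side of the threshold, and 830 of 880 did where the set term or a single set was kept. Without the set term 5 called values changed sign, none of them past the threshold: Trp53 in MEF (-0.12), piPSC (0.37), Nanog-null ESC (0.27) and Nanog-null iPSC (0.0865), and Cdkn2a in Nanog-null iPSC (-0.0166). That fit also called 5 genes in Nanog-null ESC and by limma 0 between Nanog-null iPSC and Nanog-null ESC, 0 between the clones and 0 for the difference of Nanog-null effects. Leaving out each sample in turn, Ccnd1 in Nanog-null iPSC ranged from -0.41 to 0.31, and the highest value was that without WT iPSC 1.

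Between WT iPSC and WT ESC edgeR called 3 genes with TMM and 2 with RLE, and limma called 8 in the AC set alone, which holds 1 sample of WT iPSC. Over all genes limma called 98 higher and 58 lower there, and edgeR with TMM 1002 and 313. For the difference of Nanog-null effects edgeR with TMM called 4 genes and the AC set alone 7, and over all genes limma called 885 higher and 801 lower, and edgeR 958 and 1591. Between clones G2 and G5 limma called 4 in the AC set alone and 5 with only these groups fitted, and 5 between Nanog-null iPSC and Nanog-null ESC with only those groups fitted.

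Same-numbered samples of different AC groups with 2 samples in the set deviated with correlations of -0.06 to 0.11. The check leaves out WT iPSC and all JI samples and cannot exclude a weak pairing by number. With the replicate number as a block, 1 gene passed between WT iPSC and WT ESC (Perp, -0.28, limma adjusted p = 0.0479) and 3 for the difference of Nanog-null effects (Ccnd2 added), and no other count of calls changed.

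Leaving out each sample in turn gave 8 to 8 called genes for MEF, 6 to 9 for piPSC, 7 to 9 for Nanog-null ESC, 6 to 9 for Nanog-null iPSC and 8 to 9 for Nanog-null iPSC against piPSC. It gave 0 to 2 for Nanog-null iPSC against Nanog-null ESC, 1 to 1 for G2 against G5, 0 to 5 for WT iPSC against WT ESC (4 or 5 without WT ESC 4 or WT ESC 3) and 0 to 4 for the difference of Nanog-null effects. Where 1 sample was left in a group it was assumed to vary like the others. Precision is lowest where fragments are few, as for Cdkn2a in MEF (40 and 109 fragments).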
